A study of Mus musculus with 3 samples.

Results

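Hoxc10 summits without a called Tbx4 summit nearby, inside protein-coding genes, were described in chromatin of mouse hindlimb buds. They are called Hoxc10-only sites, which does not show that Tbx4 is absent from them. Members were the summits of the Hoxc10 list from the Abcam antibody that had no Tbx4 summit within 200 bp and lay in the body of at least 1 protein-coding gene. Of the 1614 Hoxc10 summits, 432 met both conditions, or 26.8% (95% Wilson interval 24.7 to 29.0%). They were 68.8% of the 628 Hoxc10 summits inside genes and 39.4% of the 1096 Hoxc10 summits without a Tbx4 partner. Both lists come from chromatin immunoprecipitation with sequencing (ChIP-seq) of hindlimbs of wild type CD1 embryos at embryonic stage e11.5. One sample was precipitated with an Abcam antibody to Hoxc10 and the other with a homemade antibody to Tbx4. Each factor is represented by 1 list and there are no replicates, so sites and genes are counted and described, and no difference between them was tested. Intervals cover counting error only. Members were chosen by the measured distance of each summit to the nearest Tbx4 summit and by its position inside a gene body, so neither is a finding.

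Hoxc10 is a homeodomain protein of the posterior Hox genes, which give positional identity to the hind part of the body and to the limb. Posterior Hox proteins bind short AT-rich sequences, and much of their binding is at enhancers, stretches of DNA that raise transcription of a gene from a distance. Enhancers often lie in introns, and one inside a gene can act on that gene or on a neighbour. A summit inside a gene therefore names a host gene and not a target.

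DNA sequence was at hand only for windows of 300 bases at annotated gene starts (250 bases before to 50 after the start, RefSeq, build GRCm38.p6, the same coordinates as mm10). Of the 432 members 13 had their summit in such a window, in 14 windows, since the windows of the divergent genes Pcnx3 and Map3k11 overlap. In all 14 windows the summit lay upstream of the start, by 33 to 240 bases, and was still inside a gene because another start or an adjoining gene reached further. The runs below show up to 60 bases to each side of 7 of these summits, in the reading direction of the gene. They are the 5 in which the letters TTTATG or TTTACG fell within 20 bases of the summit, then Tgif1, where TTTATG began 35 bases from it, and Gli2, which had no match. Capitals mark TTTATG or TTTACG on either strand, so that CATAAA and CGTAAA are the same letters read on the other strand. The summit is base 61 of each run, except base 33 at Pax2 and base 16 at Snx30.
Map3k11, chr19:5688937-5689057 (plus strand): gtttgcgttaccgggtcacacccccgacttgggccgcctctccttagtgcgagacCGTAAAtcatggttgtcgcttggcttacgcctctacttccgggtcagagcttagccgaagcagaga
Snx30, chr4:59805400-59805475 (plus strand): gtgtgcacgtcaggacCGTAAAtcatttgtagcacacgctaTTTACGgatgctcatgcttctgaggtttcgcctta
Fndc11, chr2:181219832-181219952 (plus strand): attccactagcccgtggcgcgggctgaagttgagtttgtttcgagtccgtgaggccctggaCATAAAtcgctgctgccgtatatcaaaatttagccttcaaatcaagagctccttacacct
Smarcal1, chr1:72583142-72583262 (plus strand): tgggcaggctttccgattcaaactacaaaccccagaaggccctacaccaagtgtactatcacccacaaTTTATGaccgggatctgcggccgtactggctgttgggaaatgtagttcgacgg
Pax2, chr19:44755502-44755594 (plus strand): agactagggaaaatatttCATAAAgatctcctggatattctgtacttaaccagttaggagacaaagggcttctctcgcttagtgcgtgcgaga
Tgif1, chr17:70849896-70850016 (minus strand): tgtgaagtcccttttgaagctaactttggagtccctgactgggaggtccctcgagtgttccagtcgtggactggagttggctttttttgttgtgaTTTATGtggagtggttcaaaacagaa
Gli2, chr1:119053641-119053761 (minus strand): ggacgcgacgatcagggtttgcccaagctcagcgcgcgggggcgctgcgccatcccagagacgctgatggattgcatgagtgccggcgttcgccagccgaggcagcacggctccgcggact

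Map3k11 encodes a kinase that activates the JNK pathway, Pax2 a paired-box transcription factor, Tgif1 a homeodomain repressor of TGF-beta signalling and Gli2 a transcription factor of Hedgehog signalling. In the run shared by Map3k11 and Pcnx3, the match began 5 bases before the summit, and this site had the highest score of the 13, 43.3. At Snx30 (score 5.69) and Fndc11 (6.34) the match began 1 base after the summit, at Smarcal1 (11.45) 8 bases after it and at Pax2 (9.91) 14 bases before it. Snx30 held TTTACG 3 times in its window, and 2 of these are in the run shown. TTTATG occurred in 7 of the 14 windows and in 11.9% of all 32851 promoter windows of the same length. TTTACG occurred in 4 of 14 and in 3.03% of all. The match shared by Map3k11 and Pcnx3 is counted in both of their windows, here and in the next count of windows. Either was present in 9 of 14 windows against 14.6% of all, and within 20 bases of 5 of the 13 summits against 2.01% of all stretches of 41 bases in these promoters. The other letters searched on both strands were TTTATTG (1 of 14 windows, 4.60% of all), TGATTTAT (1 and 0.977%), TGATTGAT (0 and 0.746%) and the T-box letters AGGTGT (3 and 13.7%). The TGATTTAT match of Tgif1 overlaps its TTTATG. A match is a description of letters and not a shown binding site, and the 14 windows are a small part of the members. The member windows had a median GC content of 55.5% and a median of 16.5 CpG pairs, against 52.7% and 7 over all windows.

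The 432 members lay in 364 host genes, 1.66% of the 21887 protein-coding genes of the RefSeq table. In 317 hosts there was 1 member, in 36 there were 2, in 7 there were 3, and 4 genes held 4, 5, 6 and 8. The 47 genes with at least 2 members held 26.9% of all members (116 sites). Only 1 member was inside 2 genes, at the shared 5′ ends of Pcnx3 and Map3k11, and 23 members (5.32%) were also inside a gene for a long non-coding RNA. Genes with 3 or more members numbered 11, or 0.0503% of all protein-coding genes. In the 792 higher-scoring sites of the Hoxc10 list there were 2 such genes, so most of the 11 reach this number through lower-scoring sites.

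Lrmda, a gene linked to melanocyte differentiation and pigmentation, had the most members, 8 along 1036.6 kb of chromosome 14 (22019504 to 23056093). Their scores, in order of position, were 9.13, 17.26, 4.43, 2.72, 19.94, 6.34, 1.71 and 5.05. The score is the peak caller's own value for a summit on a −log10 scale, so that a higher score means stronger enrichment evidence within this list. The gene also held 6 Hoxc10 summits with a Tbx4 partner and 11 Tbx4 summits alone. The next gene below Lrmda, 29.9 kb away, is Zfp503, a corepressor gene, which had 1 member of its own with a score of 23.67, 860 bp from its start.

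Dnm3, which encodes a dynamin of membrane scission, had 6 members, scoring 20.78, 5.05, 4.36, 17.26, 2.72 and 4.43. All 6 were in the last 20% of the gene in its reading direction, between 80.96 and 99.44% of the way along its 495.9 kb. They fell into 3 pairs with gaps of 5331, 3379 and 2256 bp. The outermost, 2797 bp from the 3′ end, had the highest score of the 6 and a Tbx4 summit 944 bp away. The site scoring 17.26 had a Tbx4 summit 269 bp away. Dnm3 also held 1 Hoxc10 summit with a Tbx4 partner and 5 Tbx4 summits alone.

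Col25a1, a membrane collagen gene, had 5 members with scores of 7.72, 14.69, 3.26, 13.86 and 1.40. The highest 2 of them were 17845 bp apart near the middle of the gene, at 52.7 and 56.95% of its length, with the site scoring 3.26 between them. Lrba, which acts in vesicle traffic, had 4 members, at 7.72, 13.86, 7.02 and 11.45, spread from 28.9 to 96.2% of the gene. Neither gene held a Hoxc10 summit with a Tbx4 partner, while Tbx4 summits without a partner numbered 3 and 6.

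**Figure D1:**
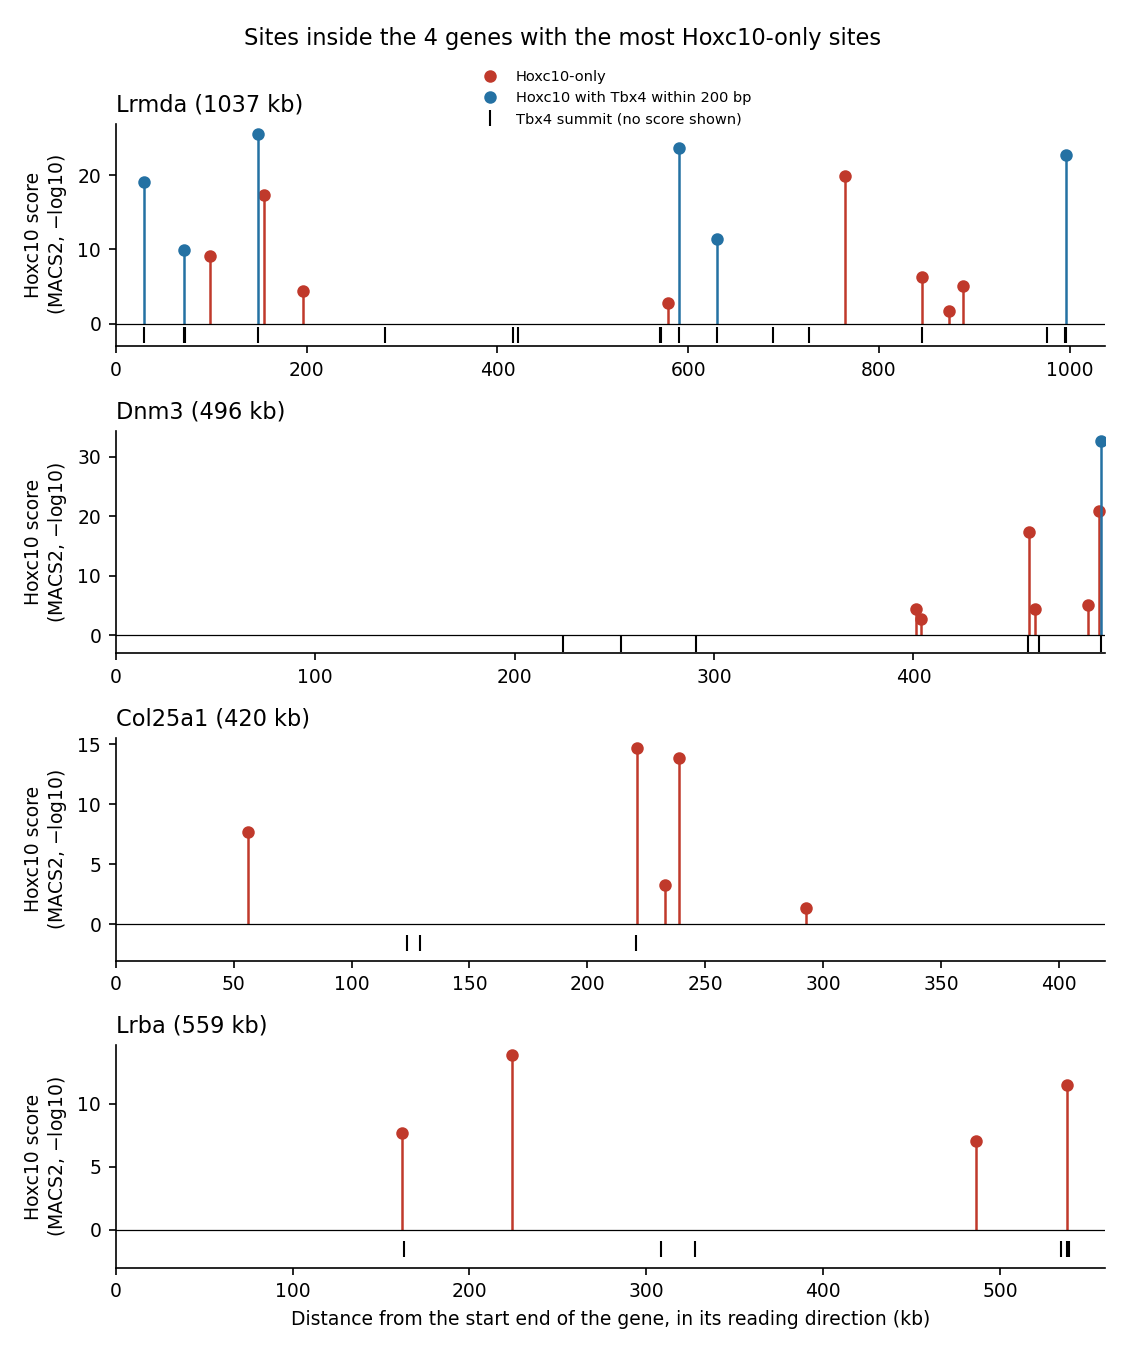
Sites along the 4 genes with the most Hoxc10-only sites. The horizontal axis is the distance from the start end of the gene in kb, the height of each pin is the Hoxc10 score (−log10 scale), red pins are Hoxc10-only sites, blue pins are Hoxc10 sites with a Tbx4 summit within 200 bp, and black ticks are Tbx4 summits. The 6 red pins of Dnm3 all stand in the last 20% of the gene, and those of Lrmda (8) run through most of it.

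Another 7 genes had 3 members each. Of the paralogous zinc finger genes of the teashirt family, Tshz2 had scores of 22.72, 6.88 and 9.16 and Tshz3 7.02, 12.24 and 6.34, and Tshz1 had 1 member at 7.02. In Tshz2 the sites stood at both ends of the gene, 2285 bp from the start and 1865 and 472 bp from the other end. In Tshz3 all 3 were in the first 44.8% of the gene, the first at 1056 bp from the start, and the nearest Tbx4 summit was 443108 bp away. Auts2, whose product associates with Polycomb complexes, had 10.67, 13.86 and 18.15 on 1105.9 kb. Slc14a2, a urea transporter gene, had 58.2, 6.34 and 3.26. The breast cancer amplified gene Bcas3 had 3.26, 5.69 and 4.43 and Tmtc2, an endoplasmic reticulum protein gene, 3.26, 4.43 and 4.43. Bcas3 ends 6.56 kb below Tbx2, and its 3 members were all below the Hoxc10 list's median score of 7.72. Of the 11 genes, 9 also held a Tbx4 summit, and Tshz3 and Hoxa3 did not.

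Host genes were long. Their median length was 195.5 kb, against 17.2 kb for all protein-coding genes, and the longest host was Ptprd with 2270.5 kb. Of the genes of 300 kb or more, 23.2% (129 of 557) hosted a member, compared with 7.43% (139 of 1872) at 100 to 300 kb, 1.12% (57 of 5077) at 30 to 100 kb, 0.465% (30 of 6456) at 10 to 30 kb and 0.114% (9 of 7925) below 10 kb. Above 100 kb the share was 11.0%. A longer gene offers more room, so members were also counted per length of gene body. The rate was 55.8 per 100 Mb in genes of 300 kb or more and 49.9 at 100 to 300 kb. In the 3 shorter classes it was 22.4, 25.9 and 30.7, from the longest to the shortest. Members were thus denser in genes above 100 kb than in shorter ones, also per base. Hoxc10 summits with a Tbx4 partner showed the same 2 levels, 27.0 and 23.8 per 100 Mb above 100 kb and 6.69 to 9.76 below. For Tbx4-only summits the rates, from the longest class to the shortest, were 174.6, 197.4, 159.1, 220.7 and 525.2. These differences were not tested.

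**Figure D2:**
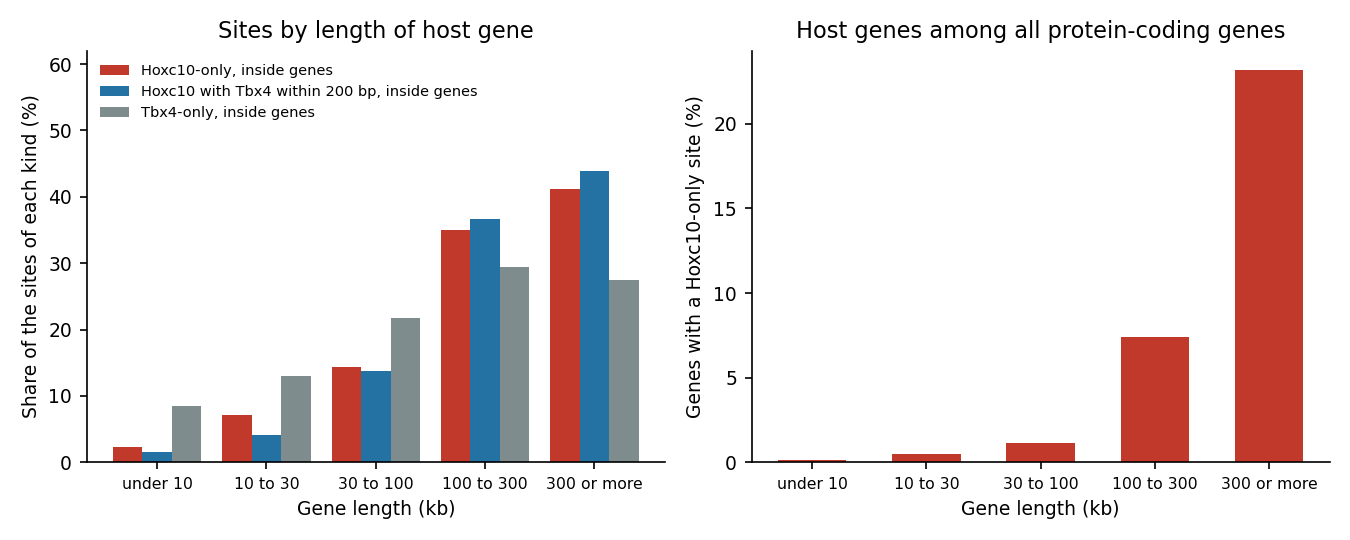
Length of host genes. Left, the share of sites (%) by length of the host gene in kb, for 432 Hoxc10-only sites (red), 196 Hoxc10 sites with a Tbx4 summit within 200 bp (blue) and 2030 Tbx4-only sites (grey), all inside genes; right, the share of all protein-coding genes of each length that host a Hoxc10-only site, which goes from 0.114% below 10 kb to 23.2% at 300 kb or more.

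The few members in short genes included some of the higher scores. The 10 members in 9 genes under 10 kb had a median score of 12.65 (quartiles 7.55 and 17.7), against 7.02 over all members. They lay in Hoxa7 (28.55), Zfp503 (23.67), C1qtnf4 (18.15), Hoxd8 (16.39), 4930524J08Rik (14.63), Tgif1 (10.67 and 5.69), Hoxb6 (9.16), Atp6v0e2 (7.02) and Gm10710 (6.34). Of these 10 sites, 6 had scores above 10. These genes are listed because they are few and were singled out after their values were seen.

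Over 4 equal parts of their hosts members were spread almost evenly. Parts of this size do not show whether sites gather at gene ends. Reading direction was known for the hosts of 346 members. Cut into 4 equal parts from the start, the hosts had 25.4% of these members in the first part, 24.0% in the second, 26.9% in the third and 23.7% in the last, with a median of 51.4% of the way along (95% interval of the median 46.5 to 55.8%). Hoxc10 summits with a Tbx4 partner were placed later, at a median of 59.8%, with 18.9% in the first part and 32.2% in the last (143 sites). Tbx4-only summits leaned to the start, with 34.2% of 1594 sites in the first part. These differences were not tested. Exons, introns and untranslated regions could not be told apart with the tables used here.

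**Figure D3:**
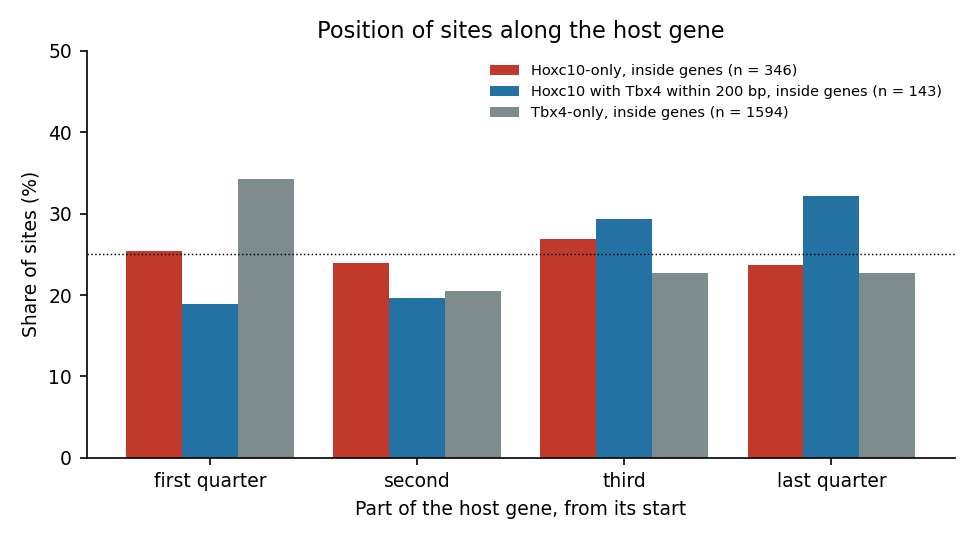
Position along the host gene. Bars give the share of sites (%) in each of 4 equal parts of the gene from its start, for Hoxc10-only sites (red, 346), Hoxc10 sites with a Tbx4 summit within 200 bp (blue, 143) and Tbx4-only sites (grey, 1594) in genes of known direction, and the dotted line is at 25%. The red bars stay between 23.7 and 26.9%.

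Few members were close to a gene start, but hosts were long (median 229.3 kb over members), so 1 kb is a small part of them. The share that an even spread would put there was not computed. The median distance to the nearest annotated start of the host was 77667.5 bp, with quartiles of 22206.8 and 194341.2 bp. Of the 346 members 34, or 9.83% (7.12 to 13.4%), were within 1 kb of a start of the host, and 148, or 42.8%, were over 100 kb from one. The share within 1 kb was 1.40% (2 of 143, 0.384 to 4.96%) for Hoxc10 summits with a Tbx4 partner and 19.3% (307 of 1594, 17.4 to 21.3%) for Tbx4-only summits. The difference between the kinds of site was not tested. The members within 1 kb had a median score of 10.29 (quartiles 5.69 and 14.69). Those at 1 to 10 kb had 6.34, those at 10 to 100 kb 7.69 and those over 100 kb away 7.02, so scores did not fall steadily with distance.

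Among the 36 members within 1 kb of either end of the host were high scores at Osbpl9 (45.52, 375 bp from the start), Map3k11 (43.3), Msh5 (31.58, 319 bp), Zfp503 (23.67) and Coq7 (20.86, 319 bp). Osbpl9 encodes a lipid transfer protein, Msh5 a factor of meiotic recombination and Coq7 an enzyme of ubiquinone synthesis. Other hosts in this set were Cdon, a Hedgehog co-receptor gene (13.04), Tshz2 (9.16), Gli2 (8.43, 82 bp from an annotated start) and Ebf3 (5.69). For 409 members (94.7%) the nearest end of any protein-coding gene belonged to the host itself, and for 23 it belonged to another gene.

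The highest-scoring members lay in hosts of many functions. There were 15 members with a score above 30. The first was in Tcf7l1, a transcription factor of Wnt signalling, with a score of 60.58 at 72655502 of chromosome 6, 133543 bp from an annotated start. It was the only member among the 10 highest Hoxc10 sites. The second was in Slc14a2, with 58.2 at 78267924 of chromosome 18, and it had a Tbx4 summit 224 bp away that scored 31.67 in the Tbx4 list. The next were in Osbpl9 (45.52), Eri3, an exoribonuclease gene (44.41), Map3k11 and Pcnx3 (43.3), and Thsd4, which encodes a protein of extracellular microfibrils (41.1).

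Equal scores of 37.86 were found in Abr and in Macrod1, an ADP-ribose hydrolase gene. Ror1, a receptor of Wnt5a, had 35.74 and a second member at 6.34. Agbl4 and Btd had 34.69 each. Agbl4 encodes a deglutamylating carboxypeptidase and Btd biotinidase. The guidance genes Sema5a and Slit3 had 33.64 and 32.61, Zfp618, a zinc finger gene, 32.61, and Msh5 31.58. Of these 15 sites 14 were over 10 kb from any Tbx4 summit and 8 over 100 kb, and 3 were within 1 kb of an end of the host. Over all 432 members, 19.2% had a Tbx4 summit within 10 kb and 57.9% within 100 kb. The share within 1 kb of a host end was 8.33%.

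Most members had modest scores. The median was 7.02, the quartiles were 4.89 and 11.45 and the lowest was 1.40, with 32 members (7.41%) above 20. Hoxc10-only sites outside genes were similar in most scores, with a median of 7.72, quartiles of 4.43 and 11.45 and 8.58% above 20 (664 sites). Their highest score was 140.3, against 60.58 for members. Hoxc10 sites with a Tbx4 partner inside genes had a median of 8.43 (quartiles 5.69 and 16.4), and 17.9% of 196 were above 20. The score takes few values, 60 distinct ones among the 432 members, and 32 members share 4.43 and 31 share 5.69. Members made up 16.8% of the 101 highest Hoxc10 sites, which include a tie, 19.6% of the 204 highest and 26.8% of the list.

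**Figure D4:**
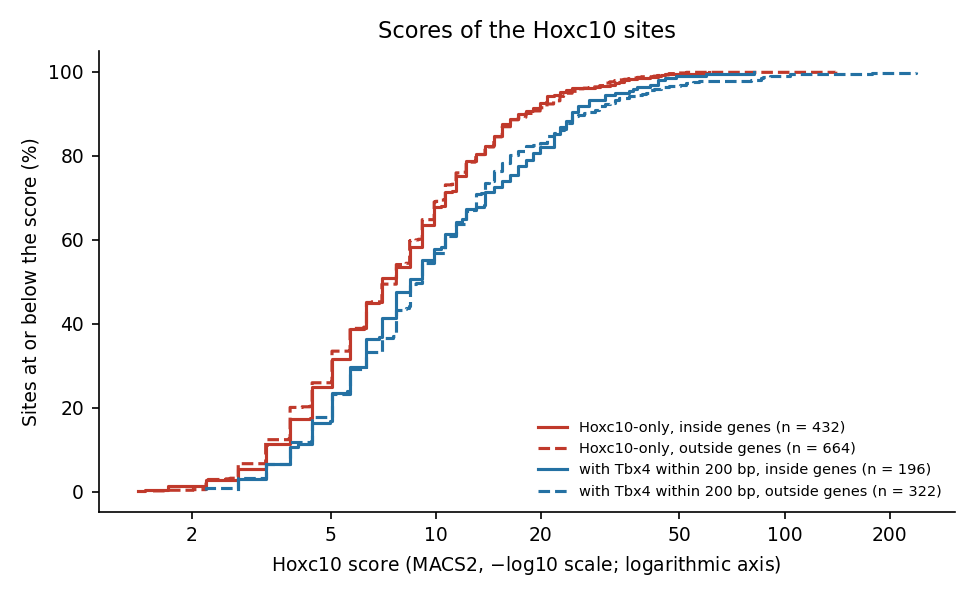
Scores of Hoxc10 sites. Each line gives the share of sites (%) at or below a score on a logarithmic axis, for Hoxc10-only sites (red) and sites with a Tbx4 summit within 200 bp (blue), inside genes (solid) and outside genes (dashed). The red lines run close together over most scores, with medians of 7.02 and 7.72, and end at 60.58 inside and 140.3 outside genes. The blue lines have higher medians, with 8.43 inside and 9.16 outside genes.

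Median scores differed little by the number of members in a gene, by Tbx4 in the gene or by host length from 10 kb up. Members alone in their gene had a median of 7.02 (316 sites), those in genes with 2 members 7.37 (72) and those in genes with 3 or more 6.61 (44). The median was 7.02 both for members whose host held a Tbx4 summit (262) and for those whose host did not (170). By host length it went from 7.72 at 10 to 30 kb to 7.02 at 30 to 100 kb, 7.72 at 100 to 300 kb and 6.95 above.

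Most members had no other member within 10 kb. The share that an even spread over gene bodies would give was not computed. The median distance to the next member on the chromosome was 1178.6 kb, and 36 members (8.33%, 6.08 to 11.3%) had another within 10 kb. These formed 18 pairs and no larger group. The closest pair was in Ltbp2, which encodes a microfibril protein, with scores of 8.43 and 24.63 at 708 bp. Next came Tshz2 (6.88 and 9.16, 1393 bp), the E protein gene Tcf4 (5.69 and 11.45, 1550 bp), Creb5, a factor of articular cartilage (9.16 and 2.72, 1568 bp), and the pair of Dnm3 farthest from its 3′ end (2.72 and 4.43, 2256 bp). None of these 5 stretches held a Tbx4 summit. They are short, and the selection bars Tbx4 summits within 200 bp of each member, so this is no finding. Of the 18 pairs 17 were in 1 host and 1 joined Hoxa3 and Hoxa7. The share within 10 kb was 4.08% for Hoxc10 sites with a partner inside genes (8 of 196), 6.33% for Hoxc10-only sites outside genes and 10.7% for Tbx4-only sites inside genes. The classes differ in size, and a larger class has closer neighbours, so these shares are not comparable as they stand.

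With gaps of up to 50 kb there were 22 pairs, 4 groups of 3 and 2 groups of 4. One group of 4 was in the 3′ part of Dnm3, over 35397 bp. The other, over 41927 bp of chromosome 6, joined 3 members of Hoxa3 with that of Hoxa7. The groups of 3 were in Col25a1 (17845 bp), in Hoxc6 and Hoxc4 (27967 bp), in Tshz3 (32730 bp) and in Lrmda (42984 bp). In hosts with several members, neighbours were a median of 54.0 kb apart (69 neighbouring pairs).

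The Hox clusters held 11 members in 8 genes, and these were among the better scores. Their median was 15.53, 8 of 11 were above the median of the Hoxc10 list, and the range was 5.05 to 28.55. Hoxa3 had 15.53, 5.69 and 5.05, Hoxa7 28.55, Hoxb3 17.26, Hoxb6 9.16, Hoxc4 15.53 and 8.43, Hoxc6 19.94, Hoxd8 16.39 and Hoxd3 5.05. All were 4907 to 31544 bp from the nearest Tbx4 summit. The sites are spread over all 4 clusters, with 4 in Hoxa, 2 in Hoxb, 3 in Hoxc and 2 in Hoxd. The Hox genes with members are of the anterior and middle groups of the clusters. No member lay in a gene of groups 9 to 13, the posterior ones, to which Hoxc10 belongs. This does not show that Hoxc10 is absent there, since sites outside gene bodies or near a Tbx4 summit were not members. Hoxa3 (44.0 kb), Hoxb3 (40.8 kb) and Hoxd3 (36.3 kb) are long beside the median of 3.74 kb over the Hox genes listed. Hoxa7 (2.95 kb) and Hoxd8 (3.32 kb) are short. The sites in Hoxa3 and Hoxc4 and those in Hoxb6 and Hoxd8 were also inside long non-coding RNA genes. Gene models in the clusters reach over long stretches, 44.0 kb for Hoxa3, so the host named is that of the table.

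Gene lists written for this tissue with earlier results of these data known hosted members as follows, beside 1.66% of all protein-coding genes. They include genes already known as hosts, so a high share is no independent evidence. Of 39 limb transcription factors 10 hosted 14 members (25.6%, median gene length 38.9 kb). Besides the teashirt genes these were Zfp503, Pknox2 (9.91), Zfp608 (8.43), Ebf3 (5.69), Zfhx3 (5.05), Tbx18 (4.43) and Lmx1b (3.83). Pknox2 encodes a homeodomain partner of Hox proteins and Lmx1b the determinant of dorsal limb identity. The genes Tbx4, Hoxc10, Pitx1 and Tbx5 hosted none.

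Of 25 genes listed with cartilage and bone factors 9 hosted 20 members (36.0%, median length 224.6 kb). Lrmda, which is not known as a cartilage factor, gave 8 of them, and without it 8 of 24 genes hosted 12. The others were Tcf4, Creb5, Foxp1 (5.69 and 5.05), Trps1 (3.83 and 3.26), Nfia (21.79), Sox6 (20.86), Runx2 (12.24) and Tcf12 (9.91). Sox6 acts with Sox9 in cartilage and Runx2 is the main factor of bone formation. The Runx2 site is the one nearest to the limit of the selection, with a Tbx4 summit 208 bp away.

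Signalling and guidance genes held mostly single members. Of 32 signalling receptors and effectors 6 were hosts (18.8%, median length 107.8 kb), namely Ror1, Tcf7l1, Igf1r (9.91), Gli2, Ror2 (6.34) and Tcf7l2 (5.05). Of 30 axon guidance genes 8 were hosts (26.7%, median length 299.5 kb), each with 1 member: Sema5a, Slit3, Ephb2 (6.34), Plxna4 and Nav2 (5.69 each), Robo2 and Sema3a (3.83 each) and Nrp1 (3.26). Of 30 adhesion and cytoskeleton genes 5 were hosts (16.7%, median length 440.3 kb), with Ctnna2 at 9.91, Magi1 at 9.16, Ncam1 at 5.05, Fat4 at 4.43 and Ntm at 1.71. Of 20 chromatin regulators 3 were hosts, among them Auts2 and Hdac9 (9.91 and 5.05). Guidance and adhesion genes are long. The median guidance gene, at 299.5 kb, falls just inside the class of 100 to 300 kb, where 7.43% of all genes were hosts, and the median adhesion gene in that of 300 kb or more, where 23.2% were. Limb factors and Hox genes (8 of 39, 20.5%, median length 3.74 kb) are shorter.

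**Figure D5:**
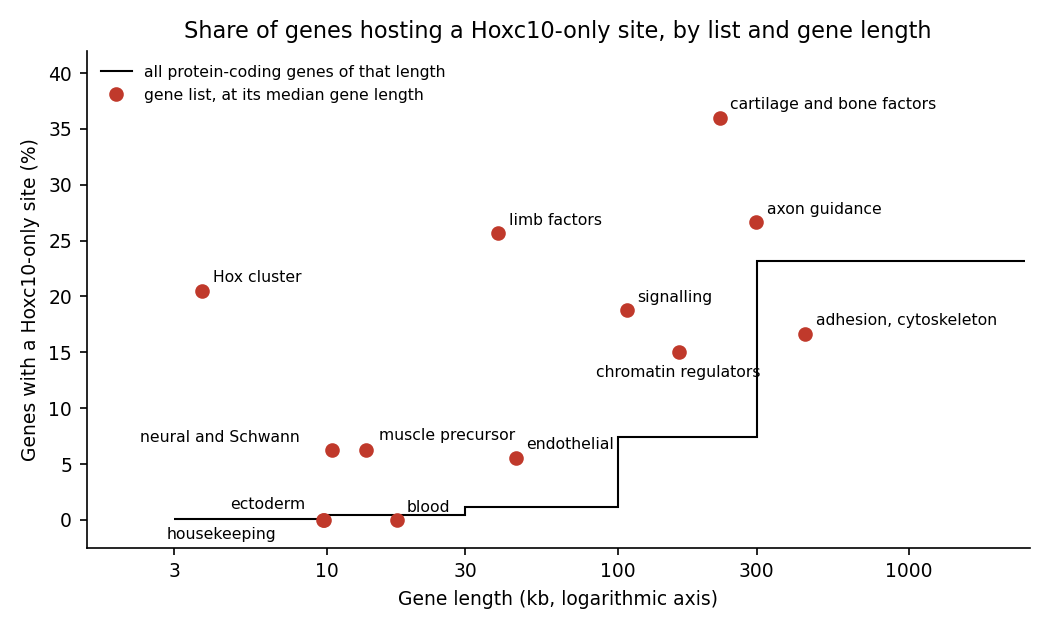
Share of genes in each list that host a Hoxc10-only site (%, red points) at the median gene length of the list (kb, logarithmic axis), beside the share among all protein-coding genes by length (black steps; the first covers all genes under 10 kb). The lists of cartilage (36.0%), limb (25.6%), Hox (20.5%), signalling (18.8%) and chromatin genes (15%) lie above the step at their length. So do the endothelial (5.56%), muscle precursor (6.25%) and neural and Schwann lists (6.25%), with 1 host each. Ectoderm, blood and housekeeping genes are at 0%. Adhesion genes (16.7%) lie below theirs of 23.2%. Guidance genes (26.7%) lie above the step of 7.43%, but their median of 299.5 kb is at its edge. The next step is 23.2%. The lists were written with earlier results known.

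Lists of other cell types and of housekeeping genes had 0 or 1 host each. None of 18 ectoderm, 15 blood and 20 housekeeping genes did. Of 18 endothelial markers only Fli1 did (5.56%), with 13.04 and 7.02. Of 16 muscle precursor markers only Pax3 did (6.25%, score 12.24), and of 16 neural and Schwann cell markers only Elavl4 (6.25%, score 2.2). With 1 host each, these shares are above the 1.66% of all protein-coding genes but rest on single genes. The lists have median gene lengths between 9.72 and 44.6 kb.

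Tbx4 was often present elsewhere in the same gene. Of the 364 host genes 206, or 56.6% (51.5 to 61.6%), also held a Tbx4 summit, against 7.37% of all protein-coding genes, and 52 (14.3%) held a Hoxc10 summit with a Tbx4 partner. Among hosts of 100 kb or more, 183 of 268 (68.3%) held a Tbx4 summit, against 30.8% of all 2429 genes of 100 kb or more. Lengths were not matched further, and 129 of these hosts but 557 of all these genes were 300 kb or longer. The nearest Tbx4 summit was a median of 64911.5 bp from a member (quartiles 16787 and 226464.5 bp). For 36 members it was over 200 and up to 1000 bp away, for 47 between 1 and 10 kb, for 167 between 10 and 100 kb, for 163 between 100 kb and 1 Mb and for 19 over 1 Mb. The 36 nearest had a median Hoxc10 score of 11.45 (quartiles 5.53 and 15.7), and the other groups 7.72, 7.02, 7.02 and 9.16. The farthest were 2 sites in Klra8, a natural killer cell receptor gene, at 2516573 and 2519120 bp, and Agbl4 at 2509353 bp.

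At the limits of the selection, the members nearest to a Tbx4 summit were in Runx2 (208 bp, score 12.24), Ttc7 (210 bp, 8.43) and Mcu (211 bp, 16.39). Just excluded, with a Tbx4 summit within 200 bp, were sites in Smad6 (196 bp, 27.55), Usp29 (197 bp, 7.72) and Mast4 (197 bp, 4.98). The member nearest to a gene end was that of Map3k11 and Pcnx3 (43.3), 6 bp from an end of Pcnx3. Next came members in Arid3a (15 bp, 3.83), 4930524J08Rik (50 bp, 14.63) and Msh5 (56 bp, 31.58). The Hoxc10-only sites nearest outside a gene were at Men1 (34 bp, 7.02), Trappc13 (45 bp, 16.39) and Lrrcc1 (47 bp, 6.34). All 432 members were on autosomes. The X and Y chromosomes held 10 Hoxc10 sites of any kind. By autosome, members were between 9.80% of the Hoxc10 sites (chromosome 16, 5 of 51) and 37.0% (chromosome 9, 27 of 73).

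Some members lay near microRNA genes. Within 10 kb of an annotated microRNA hairpin were 7 of the 432 members, and the share over other sites was not computed. The closest was in Smoc1, a matricellular protein gene, with a score of 5.69 at 81166367 of chromosome 12, 133 bp from the hairpin of Mir3067.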

How the data were processed

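ChIP-seq samples of hindlimb buds were used, 1 with a Hoxc10 antibody (Abcam) and 1 with a Tbx4 antibody, without replicates. A further sample, with a Santa Cruz antibody to Hoxc10, was not analysed here. Bowtie2 2.2.6, MACS2 2.1.1.20160309, HOMER and the build mm10 are named in the submitters' processing notes. The authors deposited 1-bp summits with a MACS2 score on the −log10 scale. No source used here says whether it is of p or q or what the control library was. The name given to the Hoxc10 list may mean that sites were kept for lying within 200 bp of sites of the Santa Cruz antibody. If so, the 1614 sites and all shares of them describe that selection, which could not be settled here. The Hoxc10 list holds 40.1% of its peak numbers (highest 4026). Read depth is unknown.

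Summits were compared with 21887 protein-coding genes of RefSeq GRCm38.p6 (Python 3.11.15, pandas 2.3.3, scipy 1.17.1), and positions are 1-based. Where a site had 2 hosts, the shorter gave its position. Starts and strand came from promoter windows, which covered 289 of the 364 hosts. Intervals are 95% Wilson or order statistic intervals. Distance and host functions were tested on simulated sites. No sequence of mm10 away from gene starts was used here, so the planned motif search around every summit was limited to promoter windows.

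Members and lists were chosen with earlier results of these data known. Named are hosts of the 15 highest members, the 12 genes with most members, the 5 closest clusters, up to 4 hosts per list and sites at the limits. Further hosts, those of 5 or fewer in a count, in genes under 10 kb, near gene ends, in promoter windows or remaining in a list, were named after their values were seen. Alternatives changed the Tbx4 distance, score threshold, gene table, gene body, host and clustering distance. One host of a gene list is not reported here.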

Additional observations from a re-analysis of the deposited data

How the results depend on the processing

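With Tbx4 distances of 100, 500 and 1000 bp the members numbered 488, 400 and 396, and their share of the Hoxc10 list was 30.2% at 100 bp and 24.5% at 1000 bp. In the higher-scoring part of the list (792 sites) there were 201 members in 186 hosts, 2 genes with 3 or more members, a median score of 12.24 by construction, and 5.97% of members with another within 10 kb. With all genes of the table, non-coding ones included, members were 34.6% of the list, the median distance to the nearer host end was 26637 bp against 43537, the median host was 121.0 kb long, and 54.4% of members shared their gene with a Tbx4 summit, against 60.6%. Without 1 kb at each gene end members were 24.5% of the list. The share with another member nearby was 6.02% at 5 kb and 14.8% at 50 kb. Counts of other alternatives stayed within 1.5 times, and other values within their intervals. No paired analysis was possible because each group has 1 sample. Without replicates or read depth, the lists limit every value to these libraries.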
